A study of Mus musculus with 6 samples.

Results

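The cells described here were epithelial cells of E10.5 mouse embryos (embryonic day, counted from the plug) that carried RNA of Nkx2-1, the homeobox factor shared by the thyroid and lung primordia. They were chosen by raw counts of unique molecular identifiers (UMIs, each marking 1 captured RNA molecule). A cell had to have at least 2500 detected genes, at most 10% mitochondrial UMIs, at least 3 UMIs of the epithelial adhesion gene Epcam, at least 2 of Nkx2-1 and 0 of Trp63, a factor of stratified and surface epithelium. This gave 484 of 6784 Epcam cells (7.13%), among 35962 cells that passed the filter and 53362 barcodes in all. They were split by Pax8 and Hhex, which mark the thyroid primordium. The 167 cells with a summed Pax8 and Hhex count of at least 2 are called thyroid-like, the 289 cells with 0 lung-like, and 28 cells with 1 UMI were kept apart.

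The tissue was the microdissected cardiogenic region, which per the labels also held non-cardiac mesoderm, ectoderm and endoderm. Embryos were wild type on the C57BL/6 strain, sired by normal glycemic males. Their mothers had been pretreated either with vehicle and were normal glycemic (3 samples), or with streptozotocin (STZ), a drug that destroys insulin-producing beta cells, and were hyperglycemic (3 samples). The deposited matrix pools 6 libraries told apart by a barcode suffix, numbered 1 to 6, and nothing used here ties a suffix to a sample. Maternal STZ and vehicle were therefore not compared, no p-value is given, and libraries are described separately without being treated as replicates of a group.

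The thyroid and the respiratory tract both bud from the ventral foregut. In the thyroid bud Nkx2-1 acts together with Pax8, Hhex and Foxe1 on the survival and later differentiation of follicular cells. In the lung and trachea it acts in an epithelium that secretes Sonic hedgehog (Shh) and branches under FGF signals, with Sox9 in the growing tips and Sox2 in the stalks and proximal airway.

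Each library contributed 29 to 129 of these cells, which made up 2.64% to 9.48% of its Epcam cells. Libraries held 200462921 to 248426458 UMIs, and libraries 1 and 2 each had exactly 10000 barcodes. Library 1 also stood apart in Xist, transcribed from the inactive X chromosome of females, at 372 CPM (UMIs per 1000000 UMIs) over its barcodes beside 0.0798 to 0.401 CPM in the remaining 5. Thyroid-like cells numbered 39, 20, 15, 22, 31 and 40 in libraries 1 to 6, and lung-like cells 15, 8, 53, 59, 87 and 67. The thyroid-like share was 34.5% over all libraries (95% Clopper-Pearson interval 30.3 to 38.9). Libraries 1 and 2 had shares of 70.9% (57.1 to 82.4) and 69.0% (49.2 to 84.7), and the remaining 4 had shares of 21.7% to 35.1%. Libraries 1 and 2 were thus apart, with the fewest lung-like cells of the 6, and what set them apart was not tested. Without those 2 libraries the share was 27.0%. Of the 484 cells, 38 had a barcode sequence that also occurred in another library, and no sequence was carried by more than 1 of them.

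**Figure D1:**
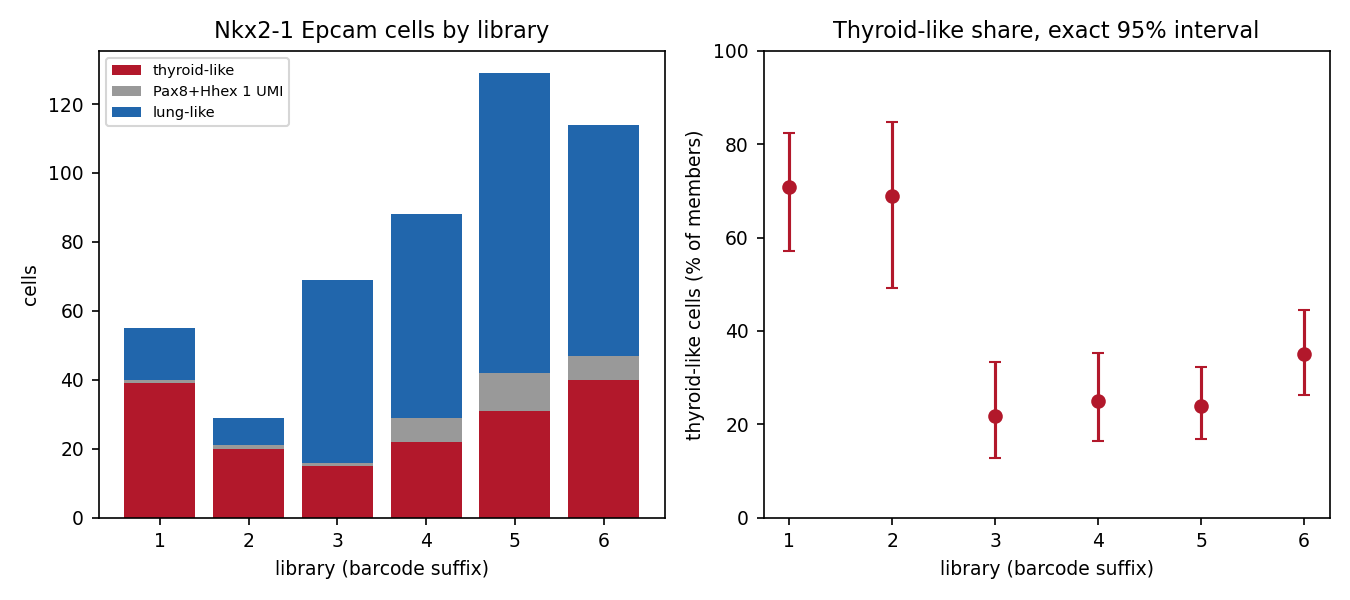
Left, number of Nkx2-1 Epcam cells in each of the 6 libraries, stacked by class; right, the thyroid-like cells as a percentage of these cells, with exact 95% binomial intervals that cover counting error only. Libraries 1 and 2 lie at 70.9% and 69.0%, the other 4 between 21.7% and 35.1%.

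The genes of the rule describe the cells and test nothing. Median Nkx2-1 was 7 UMIs in each class. In thyroid-like cells the median sum of Pax8 and Hhex was 12 UMIs; 140 of 167 had both, 16 had Hhex only and 11 had Pax8 only. At the edges of the rule, 36 cells had exactly 2 Nkx2-1 UMIs and 34 more had 1 and fell outside; 14 cells had exactly 3 Epcam UMIs and 8 with 2 fell outside. The Trp63 limit left out 115 Epcam cells with Nkx2-1. Of these, 93 had no Pax8 or Hhex UMI, with Shh at 307 CPM (from here on over the summed UMIs of a class) and Foxe1 at 32.0 CPM. Another 14 had at least 2 Pax8 and Hhex UMIs, with Foxe1 at 300 CPM and Shh at 141 CPM.

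The class names were checked against markers outside the rule, and Foxe1 and Shh lay on the side the names give. Not all list genes did. Bmp4 of the lung list lay on the thyroid-like side, and Sox9, Id2, Foxp1 and Foxp2 differed by less than 2-fold, as given below. Foxe1, a forkhead factor needed for descent of the thyroid bud, stood at 401 CPM in thyroid-like and 7.89 CPM in lung-like cells. Shh stood at 35.4 and 226 CPM. The classes were summed over libraries, ratios carry 95% exact intervals that cover counting error only and treat UMIs of the same cell as independent, and a gene was called when its ratio was at least 2 and it reached 20 CPM in either class. Of 7760 genes so measured, 768 (9.90%) were called higher in thyroid-like and 238 (3.07%) higher in lung-like cells, 13.0% in all. Library ranges were apart in 12.8% of genes on the thyroid-like side and 7.16% on the lung-like side, and the median gene had a log2 ratio of 0.08. These calls are a description, since libraries without a group are no basis for a test. A gene low in 1 group could reach 20 CPM only through the other, so counts within a list support nothing by themselves. Depth differed, with a median of 16814 UMIs per thyroid-like and 24673 per lung-like cell; CPM scales by the total, and shares of cells were also read after thinning each cell to 10000 UMIs.

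Among thyroid primordium regulators outside the rule, 3 of 4 measured genes were called higher in thyroid-like cells and none lower. Over all genes these shares were 9.90% and 3.07%. Tbx1, a T-box factor also on the list, stayed under 20 CPM. It was lower in thyroid-like cells, at 2.43 against 12.4 CPM (5.10-fold, 2.58 to 11.5), in 6 of 6 libraries. Foxe1 was 50.8-fold higher (39.6 to 66.1). By library it was lowest at 264, median 423 and highest at 683 CPM in thyroid-like cells, and 1.28, 8.65 and 50.7 CPM in lung-like cells, so the ranges did not overlap. Of the 65 Foxe1 UMIs in lung-like cells, 19 came from 1 cell and 16 from another. UMIs of Foxe1 were found in 147 of 167 thyroid-like and 20 of 289 lung-like cells. After thinning, these shares were 85.8% and 3.60%, against 26.6% of the other Epcam cells, which include pharyngeal epithelium that also uses Foxe1. Bcl2, which protects cells from apoptosis, stood at 430 against 17.6 CPM (24.4-fold, 20.6 to 29.2), and its library ranges of 350 to 654 and 13.6 to 63.5 CPM were apart. Isl1, a LIM homeobox factor of pharyngeal endoderm and heart progenitors, was 2.39-fold higher (216 against 90.2 CPM), but its library ranges of 184 to 312 and 67.3 to 208 CPM overlapped. Eya1, a transcriptional cofactor and phosphatase, was at 20.5 and 37.4 CPM and was not called.

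**Figure D2:**
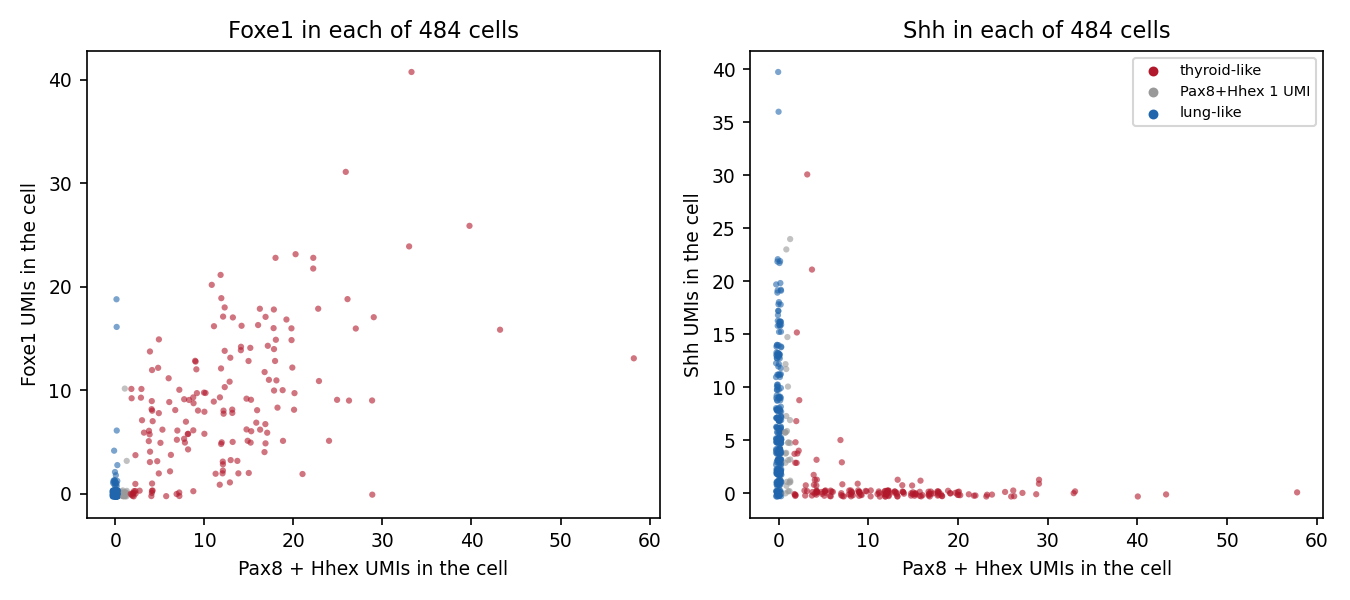
Each point is 1 of the 484 cells, placed by its summed Pax8 and Hhex UMIs (horizontal) and its Foxe1 UMIs (left) or Shh UMIs (right), with a small random shift so that points do not cover each other. The Shh UMIs lie mostly in cells with few or no Pax8 and Hhex UMIs, and the Foxe1 UMIs mostly in cells with several.

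The thyroid-like class was not uniform. In the 97 cells with at least 10 Pax8 and Hhex UMIs, Foxe1 stood at 499, Tshr at 159, Shh at 2.70 and Irx1 at 4.05 CPM. In the 70 cells with 2 to 9 UMIs the same genes stood at 254, 109, 84.3 and 75.5 CPM. The 13 cells just inside the rule, with 2 UMIs, had Foxe1 at 62.8 and Shh at 141 CPM, and the 28 cells just outside it, with 1 UMI, had 14.6 and 192 CPM. By gene, the 140 cells with both Pax8 and Hhex had Foxe1 at 465 and Shh at 6.35 CPM. The 16 cells with Hhex alone had Foxe1 at 63.2 CPM, Shh at 222 CPM and Foxp2 at 1989 CPM, beside 226 CPM of Shh and 1006 CPM of Foxp2 in lung-like cells. Those 16 cells held 102 of the 131 Shh UMIs and 70 of the 121 Irx1 UMIs of the thyroid-like class.

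Of the genes for making and controlling thyroid hormone, the receptor Tshr stood out, while Tg and Slc5a5 were near or at 0. Tshr, the receptor for thyroid-stimulating hormone, was at 139 CPM in thyroid-like, 1.94 in lung-like and 2.87 in other Epcam cells, a 71.4-fold difference between the classes (43.6 to 126). Its library values ran from 80.5 through 149 to 220 CPM in thyroid-like and from 0 through 1.07 to 34.6 CPM in lung-like cells. UMIs of Tshr were in 119 of 167 thyroid-like, 9 of 289 lung-like and 285 of 6300 other Epcam cells. Below 20 CPM, Duoxa2, the maturation factor of an oxidase that supplies peroxide for hormone synthesis, had 35 UMIs in 24 thyroid-like cells, 0 in lung-like cells and 2 in the other Epcam cells. Thyroglobulin, Tg, the protein on which hormone is made, had 24 UMIs in 11 thyroid-like cells, 10 of them in 1 cell, and 3 UMIs in lung-like cells. The iodide carrier Slc5a5 had 0 UMIs in thyroid-like cells, where a count of 0 allows up to 0.810 CPM, and 14 UMIs in 12 lung-like cells (1.70 CPM).

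Surfactant genes were found at low counts in both classes. Sftpa1, a surfactant protein gene of the mature lung, had 64 UMIs in 16 lung-like cells and 23 UMIs in 8 thyroid-like cells, and stood at 41.6 CPM in the 28 cells with 1 Pax8 or Hhex UMI. The other Epcam cells held 7 UMIs of it in all, or 0.0340 CPM. Sftpb had 43 UMIs in 24 lung-like cells, 22 in 11 thyroid-like cells and 29 in 27 of the 6300 other Epcam cells. Sftpc had 1 UMI in lung-like and 0 in thyroid-like cells, and Sftpd and Scgb1a1 had 0 in both. Cldn18, a tight junction claudin of lung and stomach epithelium, stood at 24.3 CPM in lung-like, 1.08 in thyroid-like and 0.180 CPM in the other Epcam cells. UMIs of Cldn18 were found in 92 of 289 lung-like cells and in 3 thyroid-like cells. Its lung-like library values ran from 0 through 17.3 to 54.2 CPM and overlapped the thyroid-like range of 0 to 3.37 CPM.

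Because NKX2-1 protein binds DNA with a CAAG core, the 250 bases before the start of these genes are shown, from RefSeq on GRCm38.p6, with each CTCAAG in capitals. The stretches are Sftpa1 at chr14:41131538-41131787 (plus strand), Sftpb at chr6:72304360-72304609 (plus), the upstream of 2 Cldn18 starts at chr9:99717268-99717517 (minus) and Duoxa2 at chr2:122298650-122298899 (plus). Each is written 5′ to 3′ along its gene.
Sftpa1: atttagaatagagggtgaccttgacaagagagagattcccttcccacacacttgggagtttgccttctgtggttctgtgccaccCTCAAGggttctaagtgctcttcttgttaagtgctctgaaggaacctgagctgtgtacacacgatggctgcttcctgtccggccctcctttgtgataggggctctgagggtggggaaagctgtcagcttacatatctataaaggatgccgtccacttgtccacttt
Sftpb: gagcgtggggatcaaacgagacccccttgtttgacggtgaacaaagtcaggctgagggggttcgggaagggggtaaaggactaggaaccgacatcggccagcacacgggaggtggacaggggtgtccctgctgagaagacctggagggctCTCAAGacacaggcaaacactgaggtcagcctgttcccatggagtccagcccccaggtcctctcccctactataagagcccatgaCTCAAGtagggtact
Cldn18: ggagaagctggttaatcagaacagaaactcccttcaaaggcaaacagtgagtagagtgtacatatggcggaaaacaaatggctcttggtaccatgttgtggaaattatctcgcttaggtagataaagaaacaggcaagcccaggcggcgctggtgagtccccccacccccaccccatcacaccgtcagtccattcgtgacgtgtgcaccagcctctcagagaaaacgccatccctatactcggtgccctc
Duoxa2: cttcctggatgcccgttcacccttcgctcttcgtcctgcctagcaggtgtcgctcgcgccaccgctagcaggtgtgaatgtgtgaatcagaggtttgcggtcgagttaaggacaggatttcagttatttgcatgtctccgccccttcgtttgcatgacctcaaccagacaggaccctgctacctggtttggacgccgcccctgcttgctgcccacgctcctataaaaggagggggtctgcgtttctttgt
The 6 bases CTCAAG were searched on both strands. The shorter CAAG core was not searched, and its letters also occur in the printed Cldn18 and Duoxa2 stretches. Sftpa1 held 1 match, beginning 166 bases before the start, and Sftpb held 2, beginning 100 and 15 bases before it. The stretches of Cldn18 and Duoxa2 held 0, as did that of the second Cldn18 start in the table, at chr9:99710064-99710313, which is not printed. Of 32851 promoters of this length 4378 (13.3%) held at least 1 match and 328 (0.998%) held at least 2. A match is a description of letters and was not tested as a binding site.

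In the lung and trachea progenitor list, 11 of 18 measured genes were called higher in lung-like cells, beside 3.07% of all genes. In thyroid-like cells 1 was called higher, beside 9.90%. The median log2 ratio (thyroid-like over lung-like) was -1.81 beside 0.08 for all genes. The Iroquois factors, homeobox genes of lung epithelium, were lower in thyroid-like cells together. Irx1 stood at 32.7 against 194 CPM (5.95-fold lower, 4.95 to 7.22), Irx2 at 21.9 against 152, Irx3 at 19.7 against 91.9 and Irx5 at 11.3 against 42.5 CPM. Irx1 by library ran 0, 29.1 and 73.3 CPM (lowest, median, highest) in thyroid-like and 172, 205 and 214 CPM in lung-like cells, with a gap between the classes. Shh, the secreted ligand of the branching epithelium, was 6.39-fold lower in thyroid-like cells (5.35 to 7.69), with library values of 0, 14.5 and 112 against 143, 241 and 315 CPM. After thinning, 17 of 162 thyroid-like and 225 of 278 lung-like cells had an Shh UMI, beside 17.6% of other Epcam cells. Etv5, an ETS factor induced by FGF signals in lung tips, was at 31.3 against 139 CPM, Wnt7b, a Wnt ligand of lung epithelium, at 21.9 against 77.9, and Mycn, a growth regulator of the tips, at 30.2 against 104 CPM.

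Several other genes of that list were not called. Foxp2, a forkhead repressor of lung epithelium, was at 585 CPM in thyroid-like, 1006 in lung-like and 120 in other Epcam cells. Its thyroid-like library values of 302, 400 and 1287 CPM (lowest, median, highest) overlapped the lung-like 392, 926 and 1232. The thyroid-like value rests in part on cells near the limit of the rule: Foxp2 was at 332 CPM in the 140 cells with both Pax8 and Hhex, against 1989 CPM in the 16 with Hhex alone. Foxp1 stood at 511 and 385 CPM, Sox9 at 95.8 and 82.7 and Id2 at 328 and 352 CPM, none of them called. Bmp4, a ligand of the lung tips, was the list's gene called higher in thyroid-like cells, at 108 against 44.8 CPM (2.40-fold). Sox2 was called higher in lung-like cells, at 46.0 against 8.37 CPM (5.50-fold, 3.81 to 8.21), and was higher still, at 114 CPM, in the other Epcam cells.

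**Figure D3:**
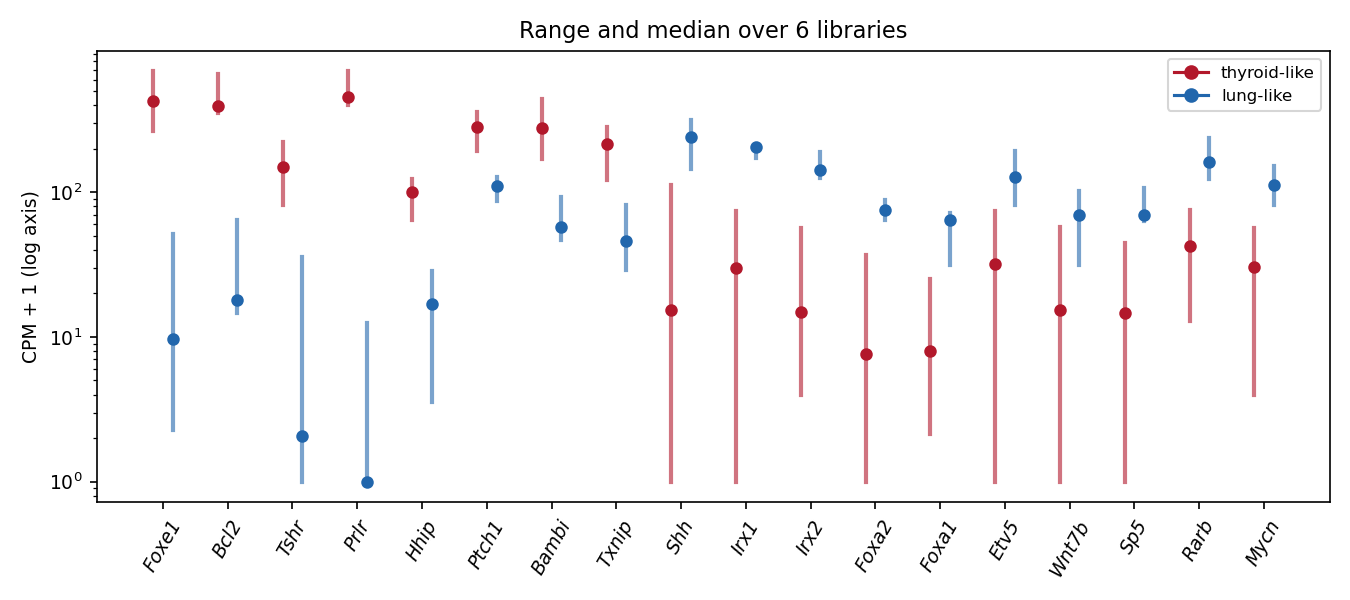
CPM plus 1 on a log axis for 18 genes in thyroid-like (red) and lung-like (blue) cells; the point is the median and the bar the range over the 6 libraries. Foxe1, Bcl2, Tshr and Prlr are higher in thyroid-like cells with ranges apart, and Shh, Irx1 and Irx2 are higher in lung-like cells with ranges apart.

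Of 4 measured foregut endoderm factors, 3 were called higher in lung-like and 0 in thyroid-like cells. Over all genes these shares were 3.07% and 9.90%. The 3 called genes reached 20 CPM only through the lung-like cells. Foxa2, a pioneer factor of endoderm, stood at 12.4 against 75.4 CPM (6.07-fold lower in thyroid-like, 4.50 to 8.38) and Foxa1 at 11.6 against 60.1 CPM. Foxa2 ranged from 0 to 36.0 CPM over the thyroid-like and from 63.4 to 86.9 CPM over the lung-like libraries, without overlap. Klf5, a factor of gut and airway epithelium, was at 9.45 and 26.2 CPM. Another 231 Epcam cells had at least 2 Foxa2 UMIs, no Trp63 and fewer than 2 UMIs of Nkx2-1 and of Pax9. Foxa1 and Klf5 were higher still there, at 90.2 and 67.2 CPM. Of 3 Hox genes measured, only Hoxc4 was called, at 2.70 against 22.6 CPM, beside 13.0% of all genes called in either direction. Hoxb2 was at 72.1 and 58.3 CPM.

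Shh was lower in thyroid-like cells. Ptch1 and Hhip, which Hedgehog signalling induces, were higher, and so were the co-receptors Cdon, Boc and Gas1. Pathway activity was not tested. Of 10 measured genes of the Hedgehog list, 7 were called higher in thyroid-like cells and 2 lower, with a median log2 ratio of 1.47. Over all genes these shares were 9.90% and 3.07%. Ptch1, the Shh receptor and a target of the pathway, stood at 276 against 110 CPM (2.50-fold, 2.29 to 2.74), with library values of 193, 281 and 359 against 86.6, 110 and 127 CPM. The decoy receptor Hhip was at 92.6 against 17.6 CPM (5.26-fold, 4.32 to 6.43) and ranged from 63.0 to 122 against 2.54 to 27.5 CPM. Neither of these ranges overlapped. The transcription factor Gli2 stood at 69.4 against 10.1 CPM, and the co-receptors Cdon, Boc and Gas1 at 62.4 against 21.2, 32.1 against 10.8 and 48.3 against 18.6 CPM. Gli3, whose processed form represses Hedgehog targets, was 3.13-fold lower, at 42.7 against 133 CPM. Smo, the signal transducer of the pathway, stood at 79.4 and 70.5 CPM and was not called.

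BMP pathway genes had 4 of 11 measured members called higher in thyroid-like cells and 0 lower (median log2 ratio 0.83). Over all genes these shares were 9.90% and 3.07%. Bambi, a decoy receptor, was at 277 against 65.6 CPM and ranged from 168 to 437 against 45.7 to 92.3 CPM, without overlap. Bmper, a secreted BMP modulator, was at 30.8 against 2.31 CPM, found in 50 thyroid-like and 11 lung-like cells. Bmp2, a ligand, was at 21.9 against 1.70 CPM, but 38 of its 81 thyroid-like UMIs came from 1 cell. Id1 and Id3, targets of BMP signals, stood at 399 against 208 and 692 against 388 CPM, under the 2-fold limit.

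In the retinoic acid list 2 of 8 measured genes were called higher in thyroid-like and 3 in lung-like cells. Over all genes these shares were 9.90% and 3.07%, also for the Wnt, FGF and Notch counts below. The synthesis enzyme Aldh1a3 had 76 UMIs in 46 thyroid-like cells and 5 UMIs in 4 lung-like cells (20.5 against 0.607 CPM). The receptor Rarb was 4.34-fold lower in thyroid-like cells, at 42.4 against 184 CPM, and its ranges of 11.9 to 74.5 and 122 to 235 CPM did not overlap. Wnt pathway genes had 2 of 6 called, both higher in lung-like cells: Wnt7b, given above, and Sp5, a direct Wnt target, at 15.4 against 68.2 CPM. Of the FGF list 2 of 5 were called, Spry1, a feedback inhibitor, higher in thyroid-like cells (35.1 against 16.1 CPM) and Etv5 lower; the receptor Fgfr2 was at 284 and 253 CPM. None of 3 Notch genes was called.

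**Figure D4:**
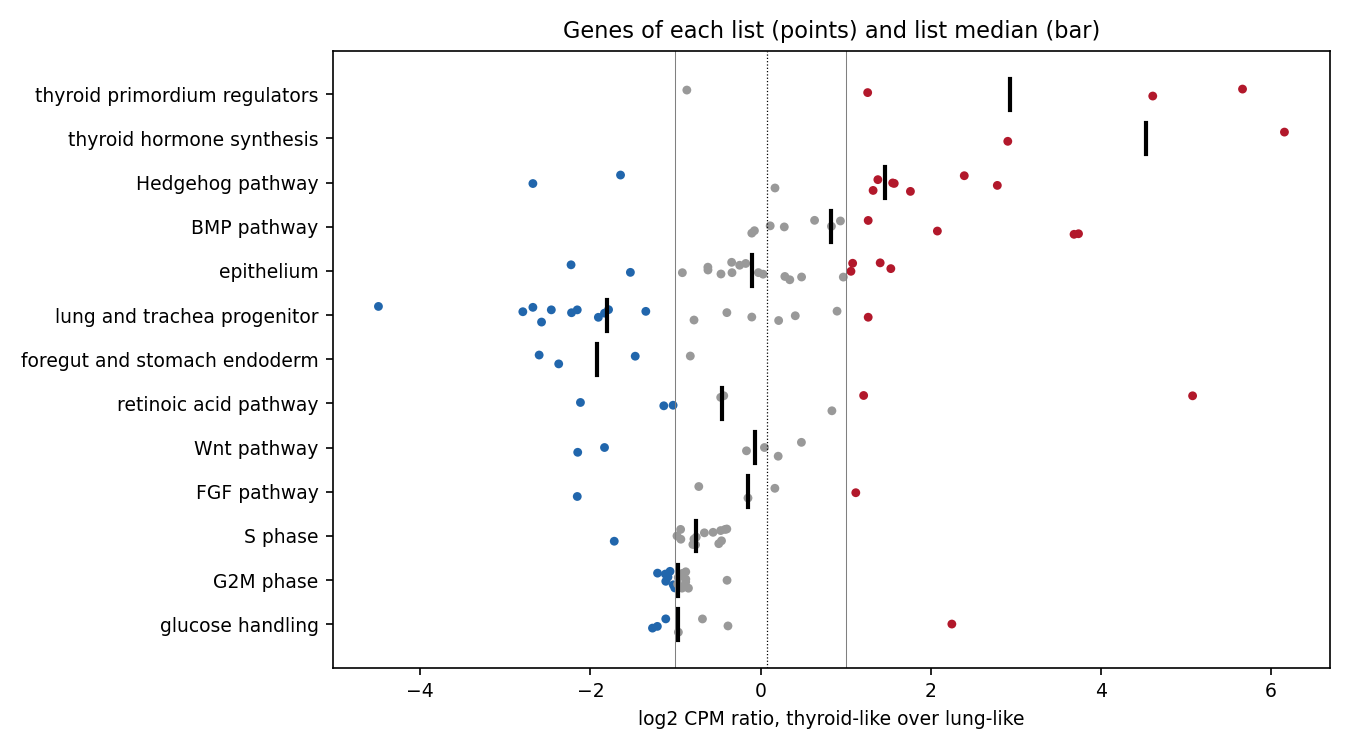
Log2 ratio of CPM, thyroid-like over lung-like, for the genes of 13 lists that reached 20 CPM in either class; points are genes, black bars list medians, grey lines mark 2-fold and the dotted line the median of all genes (0.08). The Hedgehog list has a median of 1.47, the lung and trachea list one of -1.81, and the G2M list one of -0.97.

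Cell cycle genes were lower in thyroid-like cells as a group. Of 16 G2M genes 7 were called lower and 0 higher, beside 3.07% and 9.90% of all genes, and the median log2 ratio was -0.97. Their summed level was 876, 1181 and 1969 CPM (lowest, median, highest library) in thyroid-like cells and 2378, 2491 and 3226 CPM in lung-like cells, without overlap. Other Epcam cells, at 2842 to 2993 CPM, lay within the lung-like range. Ube2c, which tags mitotic proteins for destruction, stood at 236 against 475 CPM, and Aurkb, a mitotic kinase, at 31.6 against 73.1 CPM. Per cell, the median share of UMIs from the G2M list was 0.00906% in thyroid-like and 0.168% in lung-like cells. The proliferation antigen Mki67 had a UMI in 16.7% of thinned thyroid-like, 43.2% of lung-like and 55.9% of other Epcam cells. S phase genes had 1 of 15 called lower (Cdc6, a licensing factor, 7.56 against 24.9 CPM), beside 3.07% of all genes. Their summed level was 630 to 1115 CPM against 1223 to 1667 CPM over libraries. No phase was assigned to cells.

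For glucose handling, 3 of 7 measured genes were called higher in lung-like and 1 in thyroid-like cells, beside 3.07% and 9.90% of all genes. Txnip, an arrestin that restrains glucose uptake and is induced by glucose, was 4.75-fold higher in thyroid-like cells (214 against 44.9 CPM; 4.20 to 5.39), with library values of 121, 213 and 281 against 27.9, 45.4 and 80.8 CPM. The Txnip ranges did not overlap. Ldha, which turns pyruvate into lactate, was at 624 against 1445 CPM, the hexokinase Hk2 at 25.4 against 61.2 and the glucose transporter Slc2a3 at 112 against 242 CPM. Ldha ranged from 140 to 842 CPM in thyroid-like and from 904 to 1700 CPM in lung-like libraries.

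Of 20 measured epithelial genes, 4 were called higher in thyroid-like and 2 in lung-like cells, a larger share than the 13.0% of all genes, and 14 were under 2-fold. The claudin Cldn3 (198 against 74.5 CPM), the laminin receptor Itga6 (138 against 47.7), the junction protein Ocln (65.3 against 30.8) and the keratin Krt19 (67.2 against 32.2) were called higher in thyroid-like cells. The keratin Krt7 (38.9 against 182 CPM) and Cldn9 (8.37 against 24.2 CPM) were higher in lung-like cells. Cdh1, the epithelial cadherin, was at 106 and 53.9 CPM, just under the limit.

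Outside the lists, the genes furthest apart between the classes in a rank by the interval bound nearest to 1, each in the same direction in all 6 libraries, began with Prlr on the thyroid side. Prlr, the prolactin receptor, was at 476 CPM against 1.82 (261-fold, 158 to 468), from 396 through 455 to 684 CPM over the thyroid-like libraries and from 0 to 11.5 CPM over the lung-like ones. It was found in 144 of 167 thyroid-like, 4 of 289 lung-like and 359 of 6300 other Epcam cells. Cpne4, a calcium-dependent phospholipid-binding protein, stood at 591 against 2.55 CPM, the potassium channel Kcnma1 at 167 against 1.46 and the glutamate receptor Grm7 at 81.3 against 0.728 CPM. Kcnj16, another potassium channel, was at 24.0 CPM with 0 UMIs in lung-like cells. Set against a floor of 3 UMIs over that class it was 66.0-fold higher, with a counting interval that starts at 52.5. The noncoding RNA Rmst (258 against 2.31 CPM), Pde1a, a cyclic nucleotide phosphodiesterase (238 against 3.16 CPM), and Hivep3, a zinc finger factor (119 against 1.34 CPM), were among the same 12.

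On the lung side the corresponding genes included Igfbp2, a carrier of insulin-like growth factors, at 576 against 73.4 CPM (7.84-fold, 6.94 to 8.89), with library ranges of 479 to 814 and 14.9 to 165 CPM. Car4, a membrane carbonic anhydrase, was at 65.4 against 4.86 CPM and Vtn, the adhesion glycoprotein vitronectin, at 31.4 against 1.89 CPM. Car4 and Vtn were higher still, at 159 and 144 CPM, in 231 Epcam cells with at least 2 Foxa2 UMIs and fewer than 2 of Nkx2-1 and of Pax9. Gm8909 and H2-Q2, from the class I histocompatibility cluster, also ranked here, but near-identical copies can share reads and their values are uncertain.

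Chosen after its values were seen, Neurog2, a neurogenic basic helix-loop-helix factor, had 82 UMIs in 40 of 167 thyroid-like cells (22.1 CPM, 9.84 to 56.5 over libraries), and 1 UMI in all lung-like cells. In the other Epcam cells Neurog2 stood at 24.6 CPM, and 484 of 6300 had a UMI of it. Nkx2-3, a homeobox factor of pharyngeal endoderm, was also found in other Epcam cells, at 52.1 CPM beside 61.0 in thyroid-like and 1.94 in lung-like cells.

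Set against the 6300 other Epcam cells, 296 of 7345 measured genes (4.03%) were called higher in the Nkx2-1 cells and 175 (2.38%) lower, with a median log2 ratio of 0.01. The 2 leading genes were neighbours of Nkx2-1 itself. Nkx2-1 lies at chr12:56531958-56536908 on the minus strand of mm10. Sfta3-ps, annotated as a processed transcript at chr12:56488321-56529427 on the same strand, 2530 bases away, stood at 548 against 7.46 CPM (73.6-fold, 69.6 to 77.8), with library values of 450, 588 and 923 against 5.00, 7.44 and 11.3 CPM. It was found in 165 of 167 thyroid-like and 267 of 289 lung-like cells. Gm26973, an antisense gene at chr12:56535343-56607476 on the plus strand that overlaps Nkx2-1 over 1566 bases, stood at 27.6 against 0.471 CPM. The sources used here do not state whether strand was used in counting, so its reads and those of Nkx2-1, a rule gene, cannot be told apart.

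Most other leading genes belonged to a class. Prlr, Cpne4, Hivep3 and Grm7, described above, were nearly absent from lung-like cells. Lama3, a laminin chain of epithelial basement membrane, was at 95.2 CPM in lung-like, 17.3 in thyroid-like and 2.05 in other Epcam cells. Kctd8 was high in both, at 129 CPM in lung-like and 321 in thyroid-like against 8.25 CPM in other Epcam cells. In the lung and trachea list 8 of 17 measured genes were called higher in the Nkx2-1 cells and 1, Sox2, lower. Over all genes these shares were 4.03% and 2.38%.

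Genes of the pharyngeal pouches were called lower, 9 of 9 measured beside 2.38% of all genes, with a median log2 ratio of -2.25. Pax1, a paired box factor of pouch endoderm, had 1 UMI in all 484 cells against 65.6 CPM in the other Epcam cells (ratio 841, interval 151 to 33232). Pax9, its relative, was at 4.29 against 64.3 CPM, the ligand Fgf8 at 0.701 against 97.7 and Tbx1, a T-box factor of the pharynx, at 8.96 against 42.5 CPM. Library ranges of Pax9 were 1.86 to 6.15 and 53.6 to 77.1 CPM. The rule bears on surface ectoderm genes, since it asks for no Trp63 and the other Epcam cells held it at 55.1 CPM. All 5 measured besides Trp63 were lower and reached 20 CPM only through the other Epcam cells, with a median log2 ratio of -5.58, or -4.81 against other Epcam cells without Trp63. They include the factors Tfap2a (0.779 against 37.3 CPM) and Tfap2b (0.390 against 31.1) and the ligand Wnt6 (11.8 against 110 CPM).

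Transcripts of heart muscle lay in a few cells. In the cardiomyocyte list 8 of 8 measured genes were called higher in the Nkx2-1 cells than in other Epcam cells, beside 4.03% of all genes. Its summed level by library was 76.7 to 6942 CPM in thyroid-like, 81.8 to 4681 in lung-like and 482 to 1063 CPM in other Epcam cells. More than 0.5% of UMIs came from that list in 5 thyroid-like, 6 lung-like and 77 other cells, while the medians were 0.00803%, 0.00547% and 0.00607%. Erythroid transcripts passed 0.5% in 1 thyroid-like and 1 lung-like cell, where they reached 19.8%. Of 5 measured globin genes 5 were called higher in lung-like cells (median log2 ratio -4.03), beside 3.07% of all genes. The erythroid list summed to 10052 CPM in 1 lung-like library against a library median of 126. Without the cells above 0.5% in either list, a limit set after values were seen, the globin median was 0.10 and the cardiomyocyte median against other Epcam cells went from 1.55 to 0.24, while the cardiomyocyte median between the classes went from 0.30 to 0.99. The same removal left 821 and 243 genes called between the classes.

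Some lung-like cells could be set apart by Sox9 and Sox2. Of the 289 cells, 91 had at least 2 Sox9 UMIs and no Sox2 (called Sox9 cells), and 36 had the reverse (Sox2 cells). A further 22 had at least 2 of each and 56 had neither, and the rest had exactly 1 UMI of Sox9, of Sox2 or of each. This split was made after values were seen, libraries 1 and 2 held at most 4 cells of either kind, and directions are counted over the other 4. Etv5 was at 201 CPM in Sox9 cells and 44.4 in Sox2 cells (4.52-fold, 3.34 to 6.26), higher in 4 of 4 libraries. Id2, a tip marker, stood at 547 against 177 CPM, Foxp2 at 1510 against 461, Lama3 at 147 against 31.6 and Wnt7b at 110 against 46.4 CPM, each in 4 of 4. Sox2 cells were higher for Krt19 (71.0 against 14.8 CPM, 4.80-fold), Klf5 (48.3 against 15.8), Foxa2 (112 against 64.4) and Rarb (223 against 134 CPM), also in 4 of 4 libraries. Foxe1 was at 41.4 CPM (42 UMIs) in Sox2 cells and 0.986 CPM (3 UMIs) in Sox9 cells (42.0-fold, 13.4 to 212). Sox9 cells were higher for Foxe1 in 1 of 4 libraries. Single cells held 19 and 16 of the 65 Foxe1 UMIs of the lung-like class. Shh did not separate Sox9 from Sox2 cells, at 216 and 226 CPM (ratio 1.05, 0.895 to 1.22). Nor did 2 other genes named above for lung tips. Mycn was at 93.6 CPM in Sox9 cells and 119 in Sox2 cells (1.27-fold, 1.02 to 1.58), with Sox9 cells higher in 2 of 4 libraries. Bmp4 was at 66.4 and 53.3 CPM (1.25-fold, 0.918 to 1.71). Sftpa1 had 58 UMIs in Sox9 cells (higher in 3 of 4 libraries) and 0 in Sox2 cells, and Sftpb 35 and 0. Since Sftpa1 UMIs were in 16 lung-like cells in all, with up to 15 in 1 cell, a 0 among 36 cells says little, and no fold is given.

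**Figure D5:**
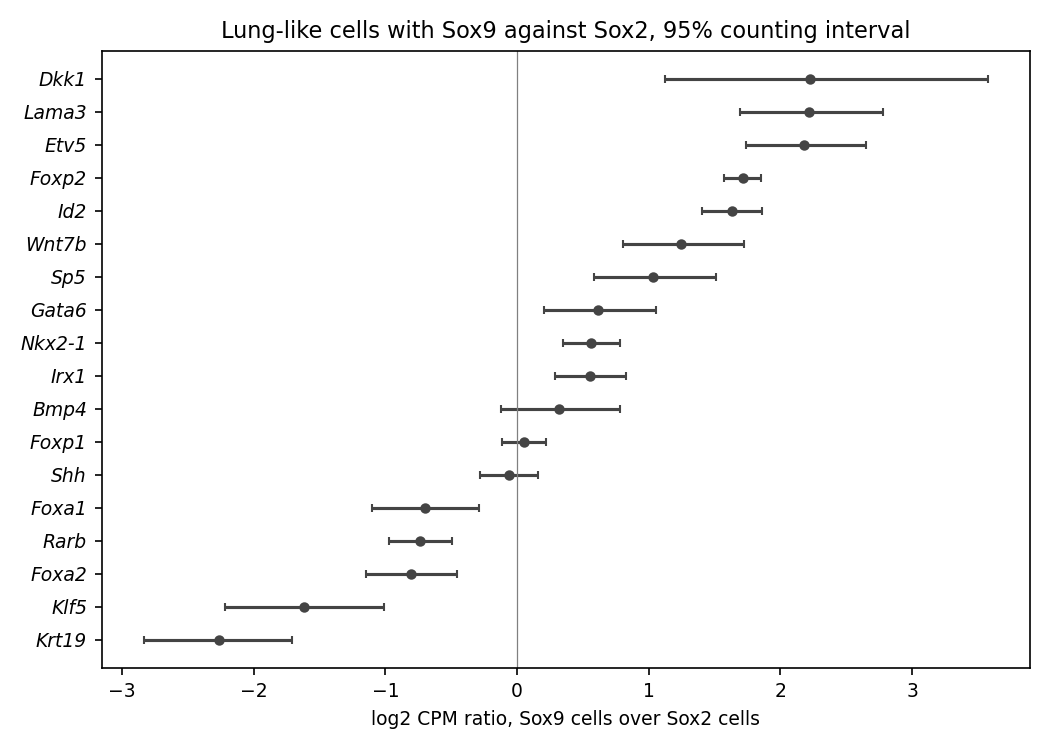
Log2 ratio of CPM between lung-like cells with at least 2 Sox9 UMIs and no Sox2 (91 cells) and with at least 2 Sox2 UMIs and no Sox9 (36 cells) for 18 genes, with 95% intervals that cover counting error only. Etv5, Id2, Lama3 and Foxp2 lie to the right (higher with Sox9), Krt19 and Klf5 to the left, and Shh and Foxp1 at 0 within their intervals.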

How the data were processed

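The deposited matrix holds whole-number UMI counts of 32285 genes in 53362 barcodes, written by the authors with Cell Ranger 5.0.0 per the file headers; CASAVA 1.8, Seurat 4 and build mm10 are named in the submitters' processing notes. The labels' descriptions name a chromatin assay, but titles, library source and kit name RNA, and the values were treated as RNA counts. No doublet caller was run. With Python 3.11.15, numpy 2.4.6, scipy 1.17.1 and pandas 2.3.3, the counts were summed over cells of a class and scaled to CPM; ratios have exact binomial 95% intervals, and a class at 0 was set at 3 UMIs. Code was tested on simulated data. Libraries with at least 5 cells of each class gave directions. Genes named from the ranks were the 12 furthest on each side by the interval bound nearest to 1, with 1 direction in every library, sex-linked, mitochondrial, ribosomal, globin and rule genes left out; the genes of 24 lists were also named. Members and lists were chosen with earlier results of these data known. STZ against vehicle was not tested, and some genes of the lists are not reported here. Gene positions are from GENCODE M21. Alternatives changed the CPM minimum, centring, depth, weighting, split, cells and libraries.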

Additional observations from a re-analysis of the deposited data

How the results depend on the processing

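No paired analysis was possible because the labels' replicate numbers 1 to 3 are not carried by the barcode suffixes. Depth limits genes near 20 CPM, and every interval covers counting error only; cells near the Pax8 and Hhex limit decide the class shares. The thyroid-like share of 34.5% was 28.9% when Pax8 and Hhex were both required, 40.3% at a sum of at least 1, 29.2% after thinning, 29.8% to 38.3% when each library was left out in turn, and 27.0% without libraries 1 and 2 (an alternative chosen after seeing the data). The cell number stayed within 355 to 455 when each library was left out.

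Calls between the classes (768 higher in thyroid-like, 238 in lung-like) became 5362 and 1173 with no minimum level and 375 and 126 at 50 CPM, where fewer genes were tested. By the mean of CPM per cell the calls were 1058 and 437, and after thinning 1078 and 458. They were 1118 and 379 without cells with at least 3 mesenchyme, endothelium or cardiomyocyte UMIs. With both Pax8 and Hhex required they were 933 and 404. At a sum of at least 10 (chosen after seeing the data) they were 1026 and 455. Both directions rose under these settings, and the cause was not tested. Leaving out each library gave 718 to 839 and 214 to 318. Against other Epcam cells, 296 and 175 became 7987 and 1389 with no minimum and 153 and 75 at 50 CPM, and 269 to 320 and 170 to 183 by library left out. With the other Epcam cells limited to Trp63 at 0 they were 319 and 178, and 131 of the 175 genes called lower were kept.

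Of list medians at least 0.5 from that of all genes, those that changed sign were, between the classes, Hox genes at 50 CPM (0.31), pharyngeal pouch genes without cells holding other types' UMIs (-0.45), and erythroid genes, at 1.10 without those cells, 0.023 without shared barcodes, 0.72 without library 5 (-4.99 without library 6) and 0.10 without cells over 0.5% cardiomyocyte or erythroid UMIs. Against other Epcam cells they were Wnt genes with no minimum (0.28) and at 50 CPM (0.66), and erythroid genes without the cells over 0.5% (0.15). The between-class cardiomyocyte median, nearer to all genes at 0.30, became -0.54 without cells holding other types' UMIs, -1.91 without library 1 and -1.83 without libraries 1 and 2, but 2.64 without shared barcodes, 1.01 without library 5, 0.99 without cells over 0.5% and 1.02 at a Pax8 and Hhex sum of at least 10, so it has no stable direction. The per-cell mean and thinning moved the median gene to 0.13 and 0.12. Of 792 recomputed log2 ratios of the ranked genes, 0 changed sign and 55 moved by over 1.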
